A study of Bos taurus with 6 samples.

Results

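The genes described here are 10 bovine genes of lysophosphatidic acid (LPA) and sphingosine 1-phosphate (S1P) signalling: the LPA receptors *LPAR1*, *LPAR2*, *LPAR3*, *LPAR5* and *LPAR6*, the S1P receptors *S1PR1* and *S1PR2*, the LPA-producing enzyme autotaxin (*ENPP2*), and the lipid phosphate phosphatases *PLPP1* and *PLPP3*. They were taken by symbol from the 15693 genes of the RNA-seq count table, which held 7 of them. The other 3 (*LPAR1*, *S1PR1* and *ENPP2*) were read from a wider table of 32774 genes in FPKM, which is the number of fragments scaled by gene length and by sequencing depth. The 10 genes were chosen with their ACADSB-/- over WT values already known, and partly selected on those values, so their levels and differences are given as a description, with no p-value. Where they are counted past a limit of the fit over all genes, the count describes where they lie in that fit and is not evidence of a difference.

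The libraries came from bovine mammary epithelial cells (bMECs) cultured from the mammary tissue of a Chinese Holstein dairy cow in lactation and grown with fetal bovine serum, hydrocortisone and insulin. Of the 6 libraries, 3 were from ACADSB-/- bMECs and 3 from unedited control bMECs (WT). *ACADSB*, a mitochondrial enzyme gene of fatty acid and isoleucine breakdown, was disrupted by transient transfection of a plasmid carrying Cas9, a guide RNA and a green fluorescent protein, and single fluorescent cells were sorted and expanded. The methods describe 1 monoclonal edited line, while the series text can be read as 3 knockout lines. With 1 clone, the loss of *ACADSB* and the history of that clone cannot be told apart. No source says that the 3 libraries of a group were separate cultures, and the libraries were made from pooled RNA. Any p-value therefore measures the spread between these libraries alone, which may be technical.

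LPA and S1P are lysophospholipids carried by serum that act outside the cell on G protein-coupled receptors. Autotaxin releases LPA from lysophosphatidylcholine, sphingosine kinases make S1P inside the cell, and the lipid phosphate phosphatases of the plasma membrane remove the phosphate from both. The LPA receptors fall into the EDG family, which holds *LPAR1*, *LPAR2* and *LPAR3* and is related to the S1P receptors, and the non-EDG family, which holds *LPAR5* and *LPAR6* and is closer to the purinergic receptors. In many epithelial cells these receptors couple to Gi, Gq and G12/13 and act on the actin cytoskeleton and on the transcription factors SRF and YAP.

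The libraries held 30550275 to 34983965 counts, and no library stood apart from its group: log2 expression across genes correlated at 0.991 to 0.993 between libraries of a group and at 0.950 to 0.956 between groups. *ACADSB* itself had 9, 7 and 15 counts in ACADSB-/- libraries, against 38, 34 and 20 in WT libraries. All 7 luminal and all 5 basal epithelial markers examined were in the count table, with summed luminal levels of 3161 to 3438 FPKM in ACADSB-/- and 4024 to 4151 FPKM in WT, and summed basal levels of 2574 to 2654 FPKM in ACADSB-/- and 2266 to 2344 FPKM in WT. Keratins carried these sums, and other markers went the other way: of the 7 luminal markers *KRT8* and *KRT18* fell while *KRT7*, *EPCAM*, *ELF3* and *CDH1* rose, and of the 5 basal markers *KRT5* and *ITGA6* rose while *KRT14* (log2 fold change -0.92) and *KRT17* (-2.99) fell (edgeR, adjusted p under 0.05). The caseins *CSN1S1*, *CSN1S2*, *CSN2* and *CSN3*, which define milk-secreting cells, were listed at 0 in all libraries. Of the markers of other cell types, 5 of 7 for fibroblasts were in the count table and summed to 597 to 624 FPKM in ACADSB-/- and 498 to 536 FPKM in WT. *DCN* made up nearly all of this sum, with 607.0 ± 13.1 FPKM in ACADSB-/- and 511.7 ± 19.3 FPKM in WT, whereas *COL3A1* was lower (log2 fold change -1.17, SE 0.198) and *COL1A2* had 0, 0 and 0 counts in ACADSB-/-, against 15, 12 and 5 in WT. Endothelial markers (3 of 5, *CDH5* at 0) summed to 0.464 to 0.715 FPKM in ACADSB-/- and 0.698 to 0.834 FPKM in WT, with *VWF* higher and *PECAM1* lower in ACADSB-/-. Immune markers (2 of 5, *PTPRC* and *LYZ* at 0) summed to 2.18 to 3.12 FPKM in ACADSB-/- and 1.32 to 2.10 FPKM in WT, and adipocyte markers (2 of 4) to 0.390 to 0.741 FPKM in ACADSB-/- and 0.516 to 0.642 FPKM in WT. The part of these markers in the results below was not tested. In bulk RNA, fewer cells that express a gene and less of its RNA per cell cannot be told apart.

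All 7 of the genes in the count table passed the filter on low counts, *LPAR3* through its ACADSB-/- counts alone. Of these, *LPAR3* and *LPAR6* were higher in ACADSB-/- bMECs and *LPAR2*, *S1PR2* and *PLPP1* were lower, while *LPAR5* and *PLPP3* overlapped between the groups. In the fit across 13720 genes (edgeR, adjusted p under 0.05), 58.2% of all genes were called, 29.7% as higher and 28.6% as lower. With a 2-fold change also required, 10.2% were called, 5.30% as higher and 4.92% as lower. By the same limits 5 of the 7 were past the first, 2 as higher and 3 as lower, and 2 were past the second, both as higher. For 5 of the 7 every library of one group lay above every library of the other, as for 63.6% of all genes. Nothing is read from these counts, since the genes were chosen with this comparison known. For *LPAR3*, with 0 counts in every WT library, passing the filter already fixed that its groups lay apart. The median log2 fold change of the 7 was 0.24, beside 0.0049 over all genes.

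**Figure D1:**
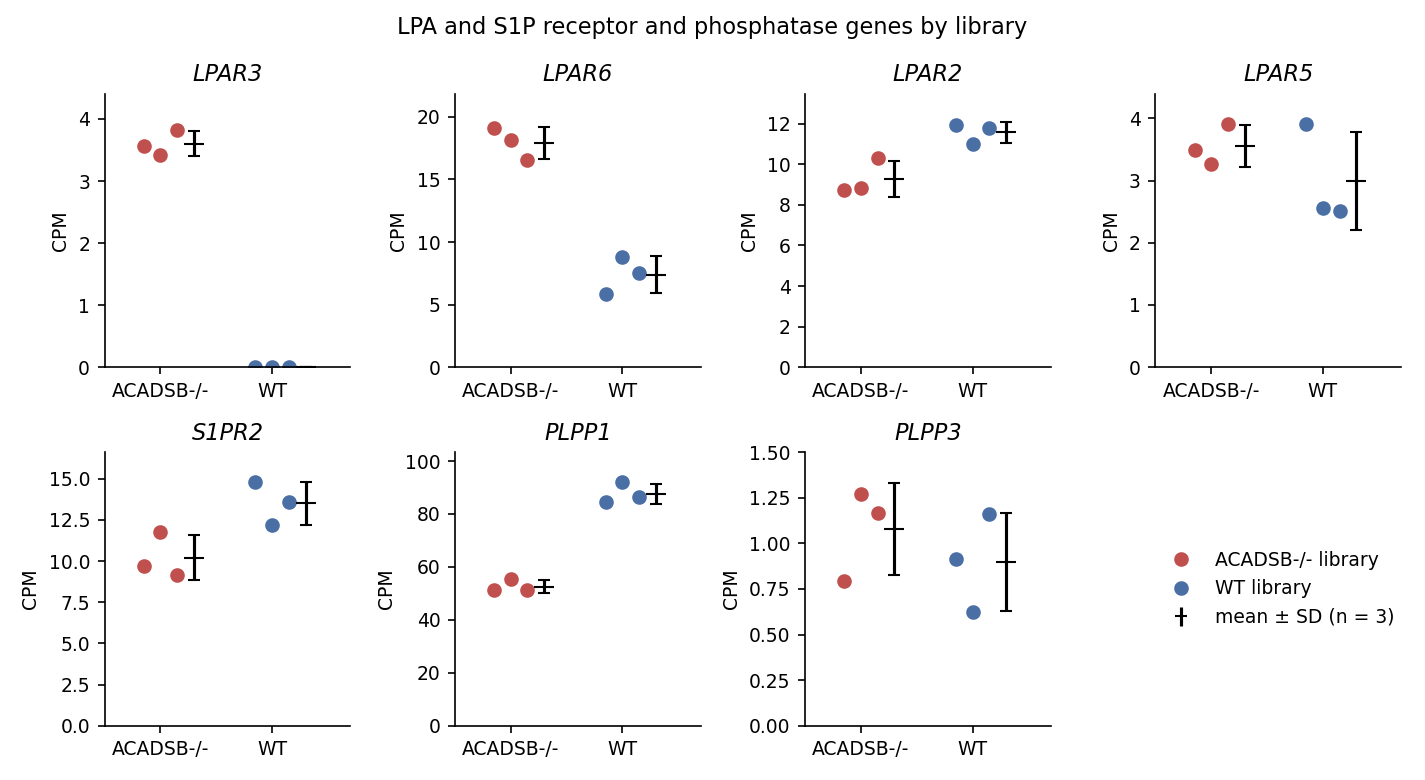
CPM (counts scaled to the library total, vertical axes, each starting at 0) of the 7 genes present in the count table, with one point per library, ACADSB-/- on the left and WT on the right, and the mean ± SD of 3 libraries beside the points. *LPAR3* lies at 3.43 to 3.82 CPM in ACADSB-/- and at 0 in WT, *LPAR6* and *PLPP1* are well apart in opposite directions, and the points of *LPAR5* and *PLPP3* overlap.

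The Gq- and Gi-coupled LPA receptor *LPAR3* was detected in ACADSB-/- bMECs alone. It had 126, 105 and 121 counts in the ACADSB-/- libraries, against 0, 0 and 0 in the WT libraries. These are 3.57, 3.43 and 3.82 CPM (counts scaled to the library total) in ACADSB-/- (3.60 ± 0.199, SD, n = 3) and 0 CPM in each WT library. The coefficient of variation between the ACADSB-/- libraries was 5.52%. With 3 libraries and counts this low, that spread is itself imprecise. With 3 counts per library taken as the most that a count of 0 allows, *LPAR3* was at least 37.7-fold higher in ACADSB-/- bMECs, a bound that covers counting error only. Per length its level was low, at 1.19, 1.13 and 1.29 FPKM in ACADSB-/- and 0 FPKM in each WT library.

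Few genes showed such a pattern at this depth. Counts above 0 in every ACADSB-/- library and 0 in every WT library were found for 25 genes, and *LPAR3* had the highest mean count of them. It was the one gene of the 25 with at least 100 counts in every ACADSB-/- library, a limit just under its lowest count of 105. *LPAR3* was among the genes chosen with these values known, so its place here is a description and not evidence. The next by mean count, named here after their values were seen, were the small GTPase effector gene *EXPH5* with 11, 5 and 20 counts in ACADSB-/- and the hair follicle keratin gene *KRT75* with a mean of 11.7 counts in ACADSB-/-, both with 0 in all WT libraries. In the opposite direction, 100 genes had 0 counts in every ACADSB-/- library and counts in every WT library. Of these, *STRA6*, the receptor for retinol-binding protein, was the one with at least 100 counts in each WT library, with 265, 258 and 253 counts there.

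**Figure D2:**
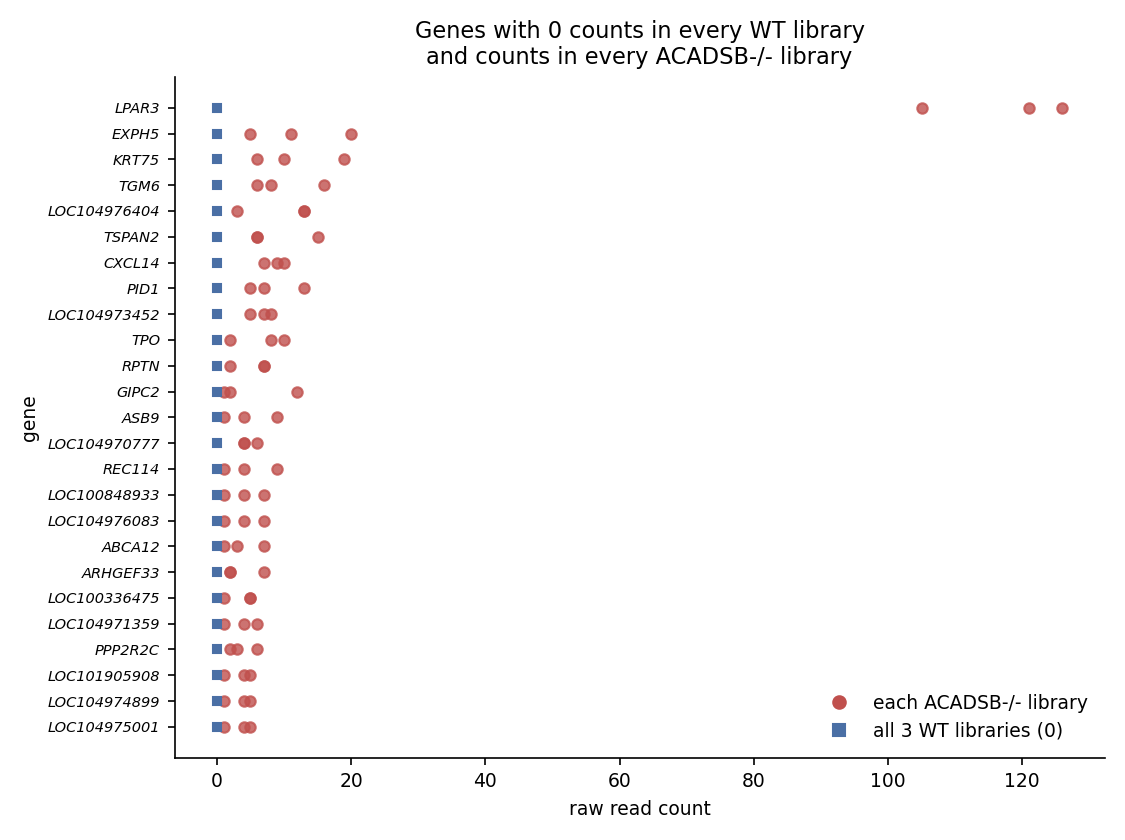
Raw read counts (horizontal axis) of the 25 genes with 0 counts in every WT library and counts in every ACADSB-/- library, ordered by mean count, with circles for the 3 ACADSB-/- libraries and a square for the WT libraries. *LPAR3* lies at 105 to 126 counts in ACADSB-/-, and the next gene, *EXPH5*, at 5 to 20.

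*LPAR6*, a non-EDG LPA receptor known from human hair disorders and coupled mainly to G12/13, was the most abundant LPA receptor of the ACADSB-/- bMECs. It had 674, 556 and 525 counts in ACADSB-/- libraries, against 192, 267 and 234 in WT libraries. This was 19.1, 18.1 and 16.6 CPM in ACADSB-/- (17.9 ± 1.28) and 5.85, 8.77 and 7.55 CPM in WT (7.39 ± 1.46). Every ACADSB-/- library was above every WT library, the ratio of the means was 2.43, and the log2 fold change was 1.28 (SE 0.125). The spread was wider in WT, with a coefficient of variation of 19.8%, than in ACADSB-/-, with 7.12%.

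The *LPAR6* reads share their locus with another gene. The annotation columns place *LPAR6* on the minus strand of chromosome 12 from 18343641 to 18345492, within the span of the retinoblastoma gene *RB1*, which runs on the plus strand from 18258171 to 18378528. Neither the genome build nor the strand setting of the counting was found in the sources used here, so reads of *LPAR6* and intronic reads of *RB1* cannot be told apart. *RB1* itself had 795, 691 and 687 counts in ACADSB-/- libraries, against 293, 263 and 282 in WT libraries, with a log2 fold change of 1.32 (SE 0.10). The FPKM of *LPAR6* was 2.36 ± 0.122 times that of *RB1* in ACADSB-/- and 2.44 ± 0.527 times in WT, so the genes differed between the groups to a like extent.

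*LPAR2*, an EDG-family receptor that couples to Gi, Gq and G12/13, was modestly lower in ACADSB-/- bMECs. It had 308, 270 and 326 counts in ACADSB-/- libraries, against 392, 335 and 365 in WT libraries. The levels were 8.73, 8.81 and 10.3 CPM in ACADSB-/- (9.27 ± 0.879) and 11.9, 11.0 and 11.8 CPM in WT (11.6 ± 0.503). The highest ACADSB-/- library lay just under the lowest WT library, and the log2 fold change was -0.32 (SE 0.119). Among the genes past the limit, *LPAR2* lay nearest to it: it was no longer past an adjusted p of 0.05 when ACADSB-/- replicate 1, ACADSB-/- replicate 2, WT replicate 1 or WT replicate 3 was left out, with log2 fold changes of -0.28, -0.28, -0.30 and -0.31.

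*LPAR5*, a non-EDG receptor that couples to Gq and G12/13, had 123, 100 and 124 counts in ACADSB-/- libraries, against 128, 78 and 78 in WT libraries. At 3.49, 3.26 and 3.91 CPM in ACADSB-/- and 3.90, 2.56 and 2.52 CPM in WT, the groups overlapped through WT replicate 1. The log2 fold change was 0.24 (SE 0.205), within the spread between libraries. *LPAR1*, the most widely expressed LPA receptor of other tissues, was listed at 0 FPKM in all 6 libraries. At this depth 3 counts of *LPAR1* would give up to 0.0634 FPKM, so a level under that was not detectable.

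Of the S1P receptors, *S1PR2*, which couples most strongly to G12/13, was lower in ACADSB-/- bMECs. It had 343, 360 and 290 counts in ACADSB-/- libraries, against 485, 371 and 421 in WT libraries. The levels were 9.72, 11.7 and 9.15 CPM in ACADSB-/- (10.2 ± 1.36) and 14.8, 12.2 and 13.6 CPM in WT (13.5 ± 1.30). ACADSB-/- replicate 2, at 11.7 CPM, lay close to WT replicate 2, at 12.2 CPM, and the groups did not overlap. The log2 fold change was -0.41 (SE 0.119). *S1PR1*, the Gi-coupled receptor that endothelial cells and lymphocytes use, was listed at 0 FPKM in all 6 libraries, where 3 counts would give up to 0.0324 FPKM.

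Among the enzymes, *PLPP1* (lipid phosphate phosphatase 1), which faces the outside of the cell and degrades LPA, was by far the most abundant of the 10 genes and was lower in ACADSB-/- bMECs. It had 1805, 1695 and 1620 counts in ACADSB-/- libraries, against 2767, 2799 and 2679 in WT libraries. The levels were 51.1, 55.3 and 51.1 CPM in ACADSB-/- (52.5 ± 2.40) and 84.3, 91.9 and 86.4 CPM in WT (87.6 ± 3.92). The groups were far apart relative to their spread, with coefficients of variation of 4.57% in ACADSB-/- and 4.48% in WT, and the ACADSB-/- mean was 0.600 times the WT mean. The log2 fold change was -0.74 (SE 0.0611). The span of *PLPP1* on the plus strand of chromosome 20, from 23735132 to 23869667, overlaps *SKIV2L2* on the minus strand, an RNA helicase gene that differed the other way (log2 fold change 0.52, SE 0.0761).

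*PLPP3*, the relative of *PLPP1* that limits LPA signalling in blood vessels, was scarcely expressed, with 28, 39 and 37 counts in ACADSB-/- libraries, against 30, 19 and 36 in WT libraries. Its levels of 1.08 ± 0.252 CPM in ACADSB-/- and 0.900 ± 0.269 CPM in WT overlapped, and the log2 fold change was 0.25 (SE 0.369). *ENPP2*, which encodes autotaxin, was listed at 0 FPKM in all 6 libraries, where 3 counts would give up to 0.0313 FPKM.

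Levels of different genes were set side by side only per length, in FPKM. In ACADSB-/- bMECs the order was *PLPP1* (34.9 ± 1.37 FPKM), *LPAR6* (9.79 ± 0.629), *LPAR2* (5.05 ± 0.527), *S1PR2* (3.83 ± 0.480), *LPAR5* (1.95 ± 0.201), *LPAR3* (1.20 ± 0.0780) and *PLPP3* (0.687 ± 0.160), and no neighbours in this order overlapped over the 3 libraries. In WT bMECs the order was *PLPP1* (56.9 ± 2.89 FPKM), *LPAR2* (6.15 ± 0.237), *S1PR2* (4.96 ± 0.464), *LPAR6* (3.94 ± 0.795), *LPAR5* (1.60 ± 0.425) and *PLPP3* (0.559 ± 0.162). There the ranges of *S1PR2* and *LPAR6* overlapped, so their order is not settled. *LPAR6* was thus above *LPAR2* in every ACADSB-/- library and below it in every WT library.

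The make-up of the LPA receptors differed accordingly. The summed FPKM of the 6 LPA receptor genes, with *LPAR4* listed at 0, was 18.2, 17.5 and 18.3 in ACADSB-/- (18.0 ± 0.438) and 11.6, 12.0 and 11.5 in WT (11.7 ± 0.259). The ratio of these means was 1.54. *LPAR6* made up 54.4 ± 3.80% of this sum in ACADSB-/- and 33.6 ± 6.21% in WT. *LPAR2* made up 28.1 ± 2.62% in ACADSB-/- and 52.6 ± 3.06% in WT. *LPAR5* took 10.8 ± 0.923% in ACADSB-/- and 13.7 ± 3.76% in WT, and *LPAR3* took 6.68 ± 0.319% in ACADSB-/- and 0% in WT. Without *LPAR6*, whose reads overlap *RB1*, the sum was 8.20 ± 0.795 FPKM in ACADSB-/- and 7.76 ± 0.620 FPKM in WT, and these overlapped between the groups. Each share above includes *LPAR6* in its sum and so carries the same limit, and shares without it were not computed. *LPAR2* itself had 5.05 ± 0.527 FPKM in ACADSB-/- and 6.15 ± 0.237 FPKM in WT.

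The S1P receptors summed to 3.92 ± 0.556 FPKM in ACADSB-/- and 5.07 ± 0.514 FPKM in WT, and *S1PR2* was 97.9% of the sum in both groups. The sums overlapped through ACADSB-/- replicate 2, at 4.55 FPKM, and WT replicate 2, at 4.54 FPKM. The 3 lipid phosphate phosphatases summed to 125.1 ± 5.93 FPKM in ACADSB-/- and 148.8 ± 7.22 FPKM in WT. *PLPP1* gave 27.9 ± 0.227% of that sum in ACADSB-/- and 38.3 ± 1.15% in WT. *PLPP2*, a phosphatase of the same family, gave most of the rest, with 71.5 ± 0.174% in ACADSB-/- and 61.4 ± 1.19% in WT.

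**Figure D3:**
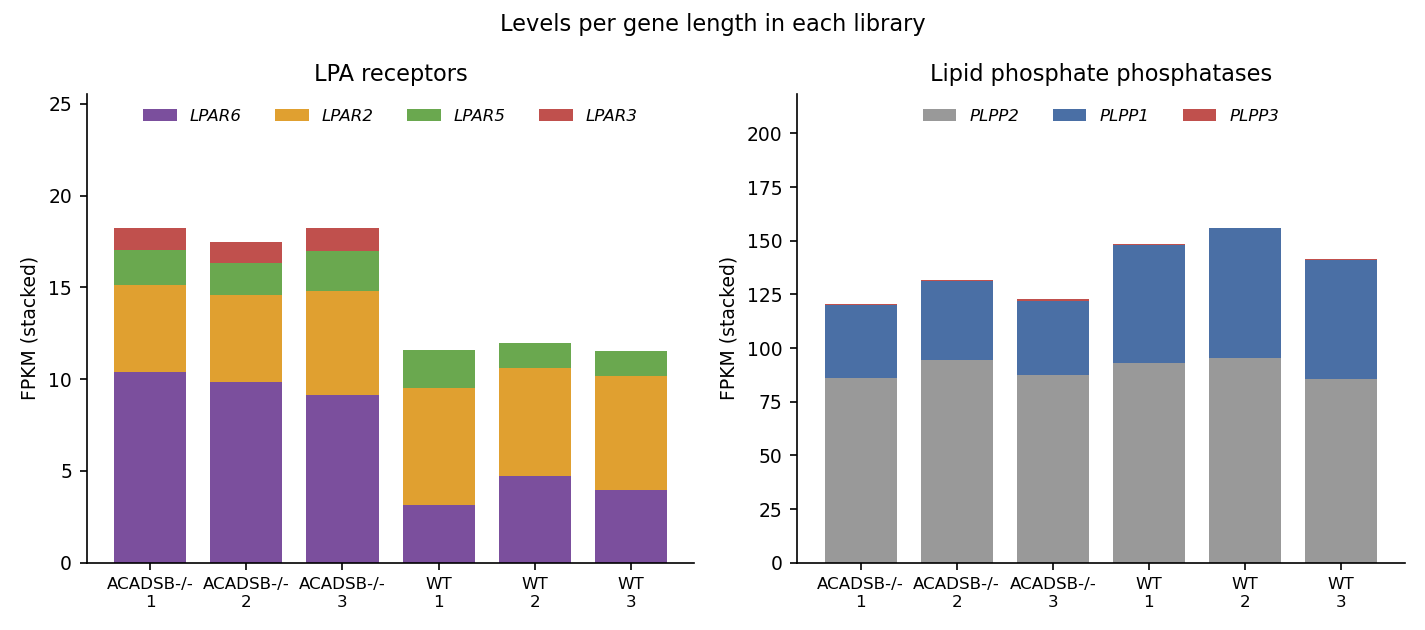
Stacked FPKM (vertical axes from 0) of the LPA receptor genes (left) and of *PLPP1*, *PLPP2* and *PLPP3* (right) in each library, ACADSB-/- first and WT after. The receptor bars reach 17.5 to 18.3 FPKM in ACADSB-/- and 11.5 to 12.0 FPKM in WT, with *LPAR6* the largest piece in ACADSB-/- and *LPAR2* in WT, and the *PLPP1* piece of the phosphatase bars is smaller in ACADSB-/-.

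The genes are spread over the genome. In the same annotation *LPAR3* lies on the plus strand of chromosome 3 from 59657300 to 59741005, *PLPP3* on the plus strand of chromosome 3 from 90518828 to 90606671, and *S1PR1* on the minus strand of chromosome 3 from 42415199 to 42419854. *LPAR2* lies on the plus strand of chromosome 7 from 3648079 to 3651534, and *S1PR2* on the minus strand of chromosome 7 from 16045300 to 16053062. *LPAR5* lies on the plus strand of chromosome 5 from 104449729 to 104459715, *ENPP2* on the minus strand of chromosome 14 from 83717396 to 83813888, and *LPAR1* on the minus strand of chromosome 8 from 102628579 to 102719129.

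The genes around *LPAR3* did not share its pattern. Within 500 kb of its span 22 genes are listed, of which 9 were in the count table and 8 were tested. Of the 8, 4 rose and 2 fell at an adjusted p under 0.05 (edgeR), with log2 fold changes from -0.82 to 0.56 and a median of 0.05. The neighbours, named after their values were seen, include *SSX2IP*, a centrosome and junction protein gene (0.56), and *DDAH1*, which breaks down methylated arginine (-0.82). The nearest genes with a name on the upstream side, the lysosomal channel genes *MCOLN2* and *MCOLN3* and *WDR63*, were listed at 0 FPKM in every library. Around *LPAR6* 13 genes are listed, and of 11 tested 6 rose and 2 fell, from -0.49 to the 1.32 of *RB1*, with a median of 0.38. Across all genes 29.7% were called as higher and 28.6% as lower, and nothing is read from the counts of neighbours.

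**Figure D4:**
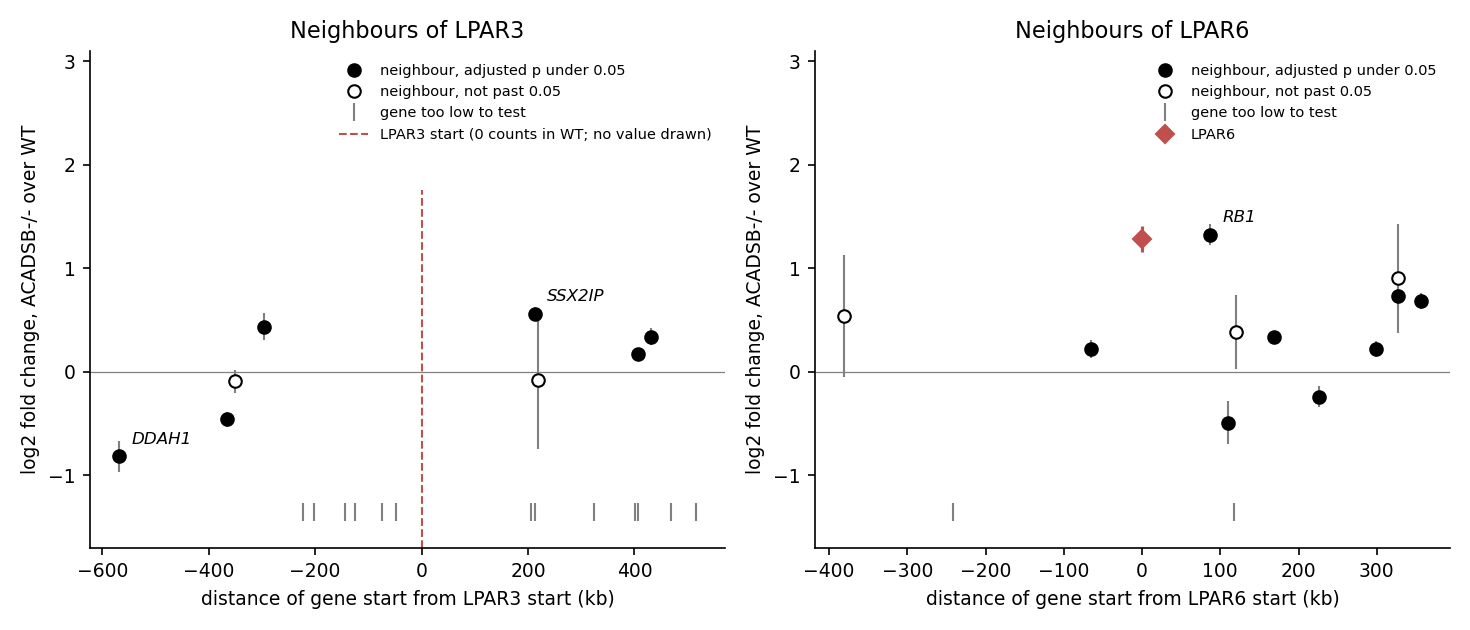
Log2 fold change of ACADSB-/- over WT (vertical axes, bars showing the standard error) of genes whose span lies within 500 kb of *LPAR3* (left) and of *LPAR6* (right), against the distance between gene starts in kb, positive downstream. Filled points passed an adjusted p of 0.05, and ticks mark genes too low to test. Around *LPAR3* (dashed line) the values run from -0.82 to 0.56, and around *LPAR6* (diamond, 1.28) the highest is the overlapping *RB1* at 1.32.

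Genes with the profile most like that of *LPAR6* and *PLPP1* over the 6 libraries were found by the Euclidean distance of centred log2 CPM, among tested genes. They match the group difference by construction and carry no test. For *LPAR6* the nearest were the cilium gene *CEP19* (distance 0.149), the endoplasmic reticulum gene *TMTC3* (0.150) and the ubiquitin ligase scaffold *CUL5* (0.163), with log2 fold changes of 1.26, 1.17 and 1.35. For *PLPP1* they were the phosphatase gene *ACP1* (0.0636), the ribonuclease P subunit *RPP38* (0.0750) and *GMDS*, which acts in GDP-fucose synthesis (0.106), with log2 fold changes of -0.75, -0.72 and -0.67.

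The other genes of the pathway are described from 6 lists with 56 genes, of which 47 were in the count table and 46 were tested. At an adjusted p under 0.05 (edgeR), 14 rose, 21 fell and 11 were not past the limit, and with a 2-fold change 1 rose and 6 fell. Their median log2 fold change was -0.20, beside 0.0049 over all genes. This lean depends on the lists taken. With the further list that is not reported here, 62 genes were tested, 22 rose and 22 fell. The median log2 fold change was then 0.016. Over all genes 29.7% were called as higher and 28.6% as lower, and nothing particular to these lists is read from the counts. The lists were chosen with earlier results of these data known, and the genes named from them were picked by their values in this same comparison. Their adjusted p-values therefore give their place in the fit and are not independent evidence of a difference.

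Among the 4 receptors not described above, *LPAR4*, *S1PR3* and *S1PR5* were listed at 0 FPKM, and the lymphocyte receptor *S1PR4* was near 0, with 6, 14 and 2 counts in ACADSB-/-, against 12, 3 and 13 in WT. Of the LPA production genes, 3 of 9 tested rose, 2 fell and 4 were not past the limit. The phospholipase D gene *PLD1*, whose product makes phosphatidic acid, rose by 0.75 on the log2 scale (SE 0.137, edgeR adjusted p = 2.7e-05), with 9.71 ± 0.375 CPM in ACADSB-/- and 5.79 ± 0.661 CPM in WT. *LIPH*, the membrane-associated phospholipase that makes LPA from phosphatidic acid and signals to LPAR6 in human hair follicles, fell by 0.63 (SE 0.0596, edgeR adjusted p = 2.4e-10), with 54.2 ± 2.34 CPM in ACADSB-/- and 83.9 ± 1.12 CPM in WT.

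Of 6 tested genes of LPA breakdown and the phosphatase relatives, 1 rose, 3 fell and 2 were not past the limit. *PLPPR3*, a relative of the phosphatases known from neurons that lacks their activity, fell by 2.03 (SE 0.378, edgeR adjusted p = 3.4e-05), from few reads: 19, 8 and 15 counts in ACADSB-/-, against 67, 58 and 41 in WT. The abundant phosphatase *PLPP2*, named after its values were seen, had 111.5 ± 6.27 CPM in ACADSB-/- and 116.4 ± 5.66 CPM in WT and was not past the limit (log2 fold change -0.06, SE 0.056, edgeR adjusted p = 0.35).

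The genes that make and break down S1P held the largest differences of the lipid enzymes: of 9 tested, 2 rose, 5 fell and 2 were not past the limit. *SPHK1*, the inducible sphingosine kinase of the cytoplasm, fell by 3.03 (SE 0.212, edgeR adjusted p = 2.9e-13). It had 39, 39 and 19 counts in ACADSB-/- libraries, against 279, 265 and 226 in WT libraries, or 0.992 ± 0.350 CPM in ACADSB-/- and 8.17 ± 0.765 CPM in WT. Per length *SPHK1* was the minor sphingosine kinase, with 0.355 ± 0.123 FPKM in ACADSB-/- and 2.86 ± 0.293 FPKM in WT. The other kinase gene, *SPHK2*, named after its values were seen, had 15.9 ± 0.923 FPKM in ACADSB-/- and 19.4 ± 0.824 FPKM in WT. Its log2 fold change was -0.32 (SE 0.0683). *SGPP1*, the S1P phosphatase of the endoplasmic reticulum, rose by 1.46 (SE 0.130, edgeR adjusted p = 6.6e-11), with 577, 406 and 431 counts in ACADSB-/-, against 179, 168 and 148 in WT. Further genes of the list, named after their values were seen, came close to the 2-fold limit: the S1P lyase *SGPL1*, with a log2 fold change of -0.96 (SE 0.0579), and the S1P exporter *SPNS2*, with -0.85 (SE 0.160).

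Of the 11 tested genes for receptor desensitisation and scaffolds, 3 rose, 6 fell and 2 were not past the limit. *RGS16*, which switches off Gi and Gq subunits, fell by 1.47 (SE 0.169, edgeR adjusted p = 1.3e-08), with 89, 88 and 70 counts in ACADSB-/-, against 235, 206 and 221 in WT. The receptor kinase *GRK3* fell by 1.04 (SE 0.317, edgeR adjusted p = 0.0059), with 35, 31 and 19 counts in ACADSB-/-, against 66, 54 and 49 in WT.

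All 10 serum-, SRF- and YAP-responsive genes of the list were past the limit, 5 as higher and 5 as lower, beside 58.2% of all genes. The largest differences were in the YAP targets *ANKRD1* and *CCN2*. *ANKRD1* fell by 3.82 (SE 0.126, edgeR adjusted p = 5.5e-11), with 226, 287 and 250 counts in ACADSB-/-, against 3409, 3856 and 3159 in WT. *CCN2*, which encodes connective tissue growth factor, fell by 2.59 (SE 0.0508, edgeR adjusted p = 5.1e-27), with 3033, 2610 and 2783 counts in ACADSB-/-, against 17089, 15259 and 16779 in WT. Another YAP target, *CCN1*, named after its values were seen, fell less, with a log2 fold change of -0.31 (SE 0.0445). The serum-induced *KLF6*, also named after its values were seen, rose by 0.78 (SE 0.0507), so the list did not move one way.

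**Figure D5:**
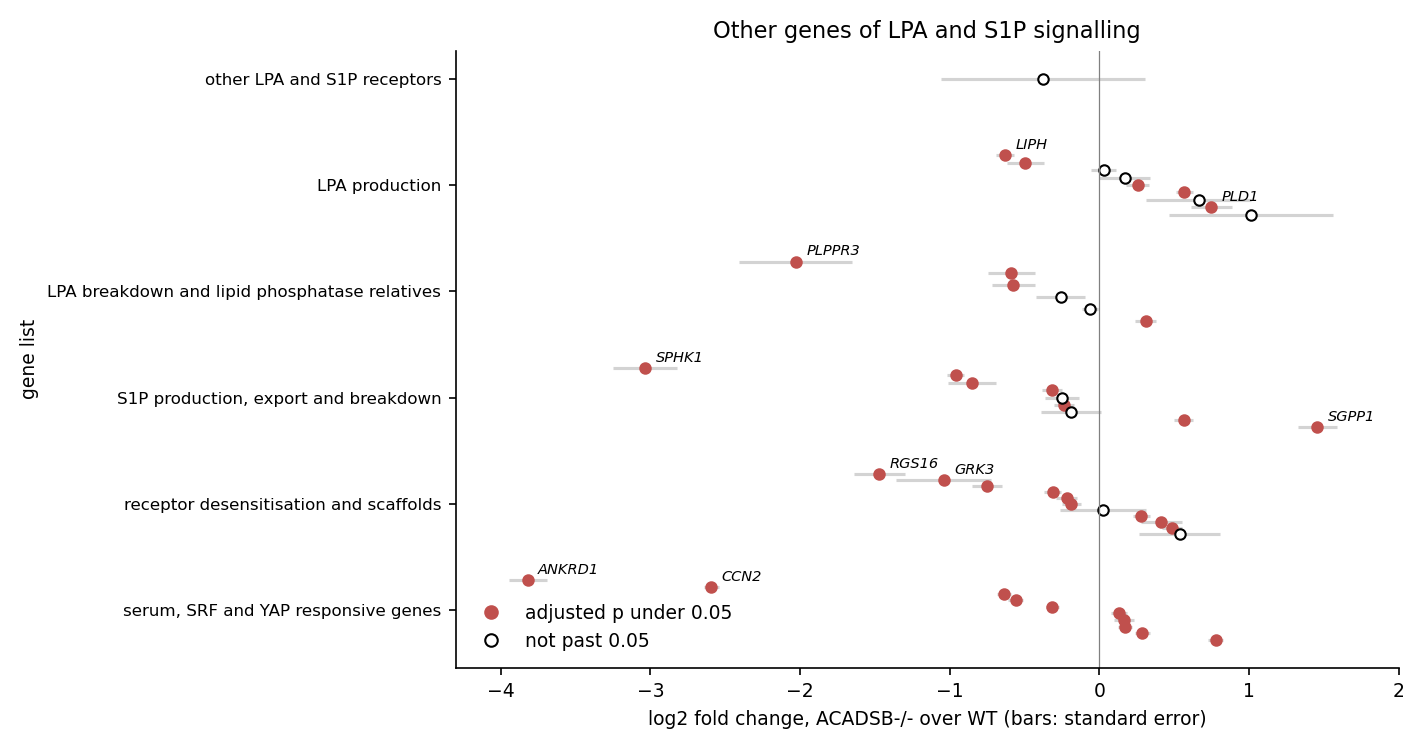
Log2 fold change of ACADSB-/- over WT (horizontal axis, bars showing the standard error) of the 46 tested pathway genes, in rows by list. Filled points passed an adjusted p of 0.05 in the edgeR fit over all genes, and open points did not. The values of *ANKRD1* (-3.82), *SPHK1* (-3.03), *CCN2* (-2.59) and *PLPPR3* (-2.03) lie farthest to the left and *SGPP1* (1.46) farthest to the right.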

How the data were processed

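The authors removed adapters and low-quality reads, aligned the rest, and deposited raw counts for each gene as well as FPKM (counts scaled by gene length and library total). The submitters' processing notes name Bismark 0.12.5 without its role. For the RNA-seq reads, the aligner, counter, genome build and strand setting were not found in the sources used here. The deposited log2 fold changes, ratio (linear fold), p-values and FDR are the authors' own comparison and were not used, nor were their lists of differential genes or the 3 columns of another cell line.

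Counts were fitted with edgeR 4.0.16 (R 4.3.3; filterByExpr with minimum count 10 and minimum total 15; TMM factors 0.978 to 1.02; robust quasi-likelihood test; group as the only term; Benjamini-Hochberg over 13720 genes). The biological coefficient of variation was 6.64%. The standard error is the absolute log2 fold change divided by the square root of F. Libraries held 30550275 to 34983965 counts. CPM used TMM-scaled totals. DESeq2 1.42.0 and limma 3.58.1 (on log2(FPKM + 1) and log2(FPKM + 0.1)) were alternatives, and the steps were tested on simulated data. Figures used matplotlib 3.10.9 in Python 3.11.15.

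The 10 genes and the pathway lists were chosen with earlier results of these data known. Named were the 10 genes. Per list, named were the genes past an adjusted p of 0.05 and 2-fold (at most 4) or otherwise the 2 with the largest change among those past 0.05. Named too were the 3 genes of nearest profile to each of the 2 genes with the largest change and a mean count of at least 100. All 10 symbols matched RefSeq. One further gene list is not reported here. Sequences are not shown.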

Additional observations from a re-analysis of the deposited data

How the results depend on the processing

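The counts were recomputed under 14 alternatives. As a description with no test, the genes of the LPA and S1P set past an adjusted p of 0.05 were 2 as higher in each, and 2 to 3 as lower, *LPAR2* being the one that dropped out when ACADSB-/- replicate 1 or 2 or WT replicate 1 or 3 was omitted. None of the log2 fold changes of the 7 genes in the count table or of the 9 named pathway genes changed sign. These 9 stayed past the limit under every alternative that gave a value, but their sizes did not all hold: on log2(FPKM + 1), which understates the change of low genes, *SPHK1* had -1.51, *RGS16* -0.92, *PLPPR3* -0.64 and, with no filter, *GRK3* -0.32, the last 3 under 2-fold. Over all genes, 1402 were past the limit and 2-fold, but 855 with a mean count of at least 50, 543 with limma on log2(FPKM + 1) and also 543 when its filter was dropped. Of all 62 pathway genes tested, 8 were past both limits, but 4 with limma on log2(FPKM + 1) and 4 without its filter. The cause of these lower counts was not tested. Leaving out one library gave 1371 to 1487 genes past both limits, 3709 to 4029 as higher and 3562 to 4018 as lower, and 6 to 9 pathway genes past both limits. *GRK3* was then under 2-fold without ACADSB-/- replicate 3 (log2 fold change -0.83) or without WT replicate 1 (-0.95). The fitted log2 fold change of *LPAR3* depends on the prior or pseudocount (1.14 to 9.90) and is no estimate of its size.

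The replicate numbers did not pair the libraries: deviations of same-numbered libraries correlated at -0.0402, -0.0256 and -0.0236. With the replicate block, 4000 genes were past the limit as higher and 3806 as lower, and *LPAR6* had a log2 fold change of 1.29. Low counts limit the precision of *LPAR3*, *LPAR5* and *PLPP3*, and a level worth under 3 counts was not detectable.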
